A study of Homo sapiens with 10 samples.

Results

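The TRIM ubiquitin ligases and the PARP family of ADP-ribosyltransferases were examined in HuCCT1, an established human line of intrahepatic cholangiocarcinoma (bile duct cancer). Members were the genes whose probe sets carried exactly 1 symbol made of TRIM or PARP, digits and at most 1 letter. This gave 69 of the 19775 genes measured, 56 TRIM and 13 PARP genes, read by 156 of 54675 probe sets. The brightest probe set over the 10 arrays stands for a gene here, with its other probe sets given beside it. The cells carried a construct labelled YAPS94A or, as controls, an empty vector, with 5 arrays for each. YAP1 is the transcriptional co-activator restrained by the Hippo kinases. S94A, named in the sample labels and in the title, is a change known to weaken binding to TEAD factors. The design text instead names the constitutively active S127A, and the array values do not settle which was used. The construct is called by its sample label throughout. The labels give neither time after transfection nor selection, and leave unsaid whether each array had a culture of its own. The p-values therefore cover the spread from array to array, and part or all of that spread may be technical.

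TRIM proteins share a RING finger, B-boxes and a coiled coil, and most act as E3 ubiquitin ligases whose targets are set by the C-terminal part. Several are induced by interferon and act against viruses or tune the cytosolic sensors of nucleic acids, while others repress chromatin or bind microtubules. PARP enzymes transfer ADP-ribose from NAD+ to proteins. PARP1, PARP2 and PARP3 act at DNA breaks, and a group that includes PARP9, PARP10, PARP12 and PARP14 is known for induction by interferon.

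All values are log2 signals as deposited, and a difference is YAPS94A minus empty vector. YAP1 read 12.53 to 13.01 on the YAPS94A arrays and 12.05 to 12.49 on the empty vector arrays, without overlap. Its difference was 0.52, and the genes around YAP1 had a median difference of 0.31. The 6 biliary epithelial markers (keratins 7, 8, 18 and 19, EPCAM and SOX9) had means of 12.71 to 14.30 with YAPS94A and 12.65 to 14.08 with empty vector, and 4 of them passed the test, all higher (KRT8 0.33, KRT19 0.23, KRT7 0.17 and KRT18 0.13). Hepatocyte, endothelial and leukocyte markers had means of at most 6.52 with YAPS94A and at most 6.90 with empty vector, and 1 of these 9 passed the test, the leukocyte marker LYZ, at -1.48. The fibroblast markers had means of 5.23 to 8.71 with YAPS94A and 5.23 to 8.83 with empty vector, and none of them passed the test. Pairs of arrays with different vectors correlated at 0.9867 to 0.9902, and pairs with the same vector at 0.9957 to 0.9991. YAPS94A array 2 lay farthest from its group mean, with deviations of SD 0.142 over all genes against 0.0764 to 0.103 on the other YAPS94A arrays. The empty vector arrays had SDs of 0.0914 to 0.132, with array 1 the highest.

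Among the 69 members, 23 were higher and 6 lower in YAPS94A cells, and 40 did not pass the test (limma, Benjamini-Hochberg adjusted p under 0.05 over all genes). Over all 19775 genes 18.6% were higher and 17.6% lower, or 36.3% in either direction. The PARP genes were 8 higher and 2 lower of 13 with a median difference of 0.23, and the TRIM genes 15 higher and 4 lower of 56 with a median of 0.03. The median over all genes was -0.0038. The share of TRIM genes called, 33.9%, was close to that of all genes. Brighter genes were called more often, and 45 of the 69 members lay above the median signal level of all genes. Of these 45 members 44.4% were higher and 13.3% lower, or 57.8% in either direction. Among all genes above that level 26.5% were higher and 25.9% lower, or 52.4% in either direction. Without YAPS94A array 2, 7 TRIM genes were lower instead of 4, and with the array number as a replicate block 7 were. The block fit called 27 members higher and 10 lower, against 21.1% and 20.1% of all genes. At 0.5 log2 units or more, 7 members were higher and none lower, against 6.46% higher and 4.18% lower over all genes. The arrays of the vectors did not overlap for 21 members that were higher and 3 that were lower, against 15.3% and 13.8% of all genes.

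**Figure D1:**
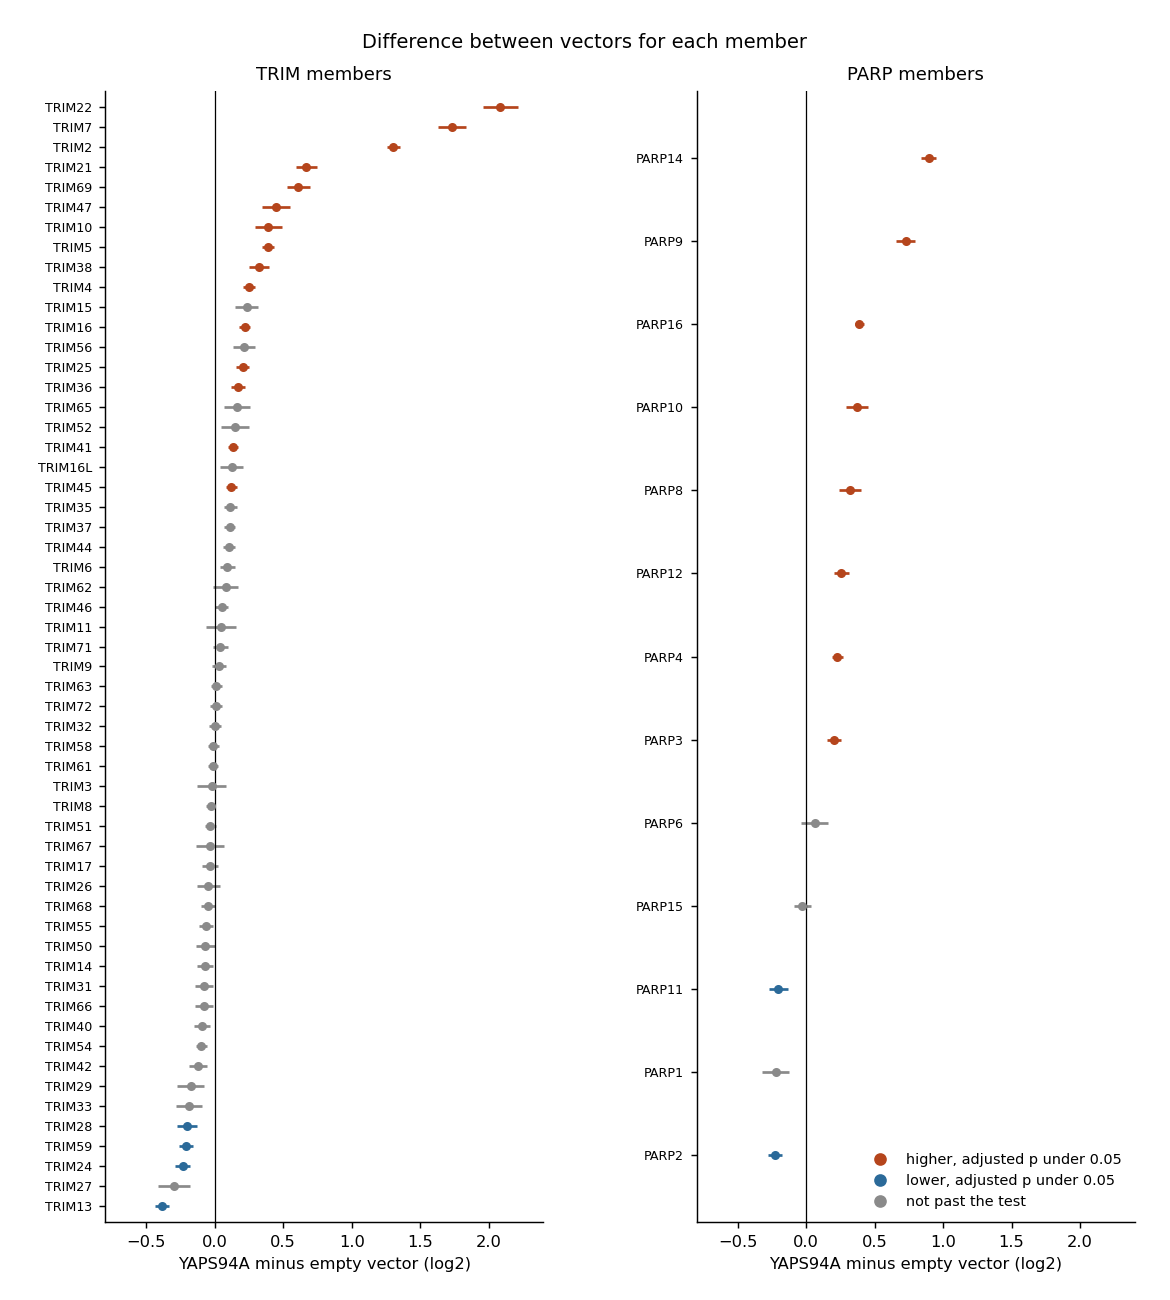
Difference between YAPS94A and empty vector (log2, horizontal axis) for the 56 TRIM members on the left and the 13 PARP members on the right, sorted by size. Points are limma estimates, bars their standard errors, and colour marks the call at an adjusted p of 0.05. TRIM22 lies highest, at 2.09, and TRIM13 lowest, at -0.38.

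Of the 11 TRIM genes listed as linked to interferon or antiviral defence, 10 were measured, of which 6 were higher and none lower, against 18.6% higher and 17.6% lower over all genes. The list was drawn up with earlier results of these data known. The median difference of these 10 was 0.27. TRIM22, an interferon-induced antiviral ligase, differed most. It read 8.63, 8.06, 8.51, 8.64 and 8.65 on YAPS94A arrays 1 to 5, and 6.42, 6.12, 6.36, 6.69 and 6.48 on the empty vector arrays. The groups lay far apart, and YAPS94A array 2 was the lowest of its group. The difference was 2.09 ± 0.13 (SE, 4.25-fold, limma adjusted p = 9.88e-08), read by 1 probe set. That probe set has an identifier ending in _s_at. TRIM22 had no value in the alternatives without _x_at and _s_at probe sets or on genes above the median level.

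TRIM21, the cytosolic antibody receptor, read 10.44, 10.36, 10.55, 10.48 and 10.47 on the YAPS94A arrays, against 9.83, 9.56, 10.04, 9.75 and 9.79 with empty vector. Every YAPS94A array lay above every empty vector array, and the empty vector arrays were the more spread. TRIM21 was 0.67 ± 0.075 higher (SE, 1.59-fold, limma adjusted p = 2.16e-05). TRIM69, known to restrict vesicular stomatitis virus, read 9.94, 10.01, 9.68, 9.81 and 9.66 with YAPS94A and 9.36, 9.37, 9.17, 9.07 and 9.08 with empty vector. The difference of 0.61 ± 0.085 (SE, limma adjusted p = 0.00012) was close to that of its second probe set (0.68 ± 0.093), whereas the dimmest of the 3 was at 0.11 ± 0.052 and did not pass.

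TRIM5, which recognises retroviral capsids, rose by less. It read 11.62, 11.42, 11.57, 11.50 and 11.57 on the YAPS94A arrays and 11.08, 11.18, 11.17, 11.19 and 11.14 on the empty vector arrays, a difference of 0.39 ± 0.043 (SE, limma adjusted p = 1.9e-05). A second TRIM5 probe set, at 6.17 with YAPS94A and 5.43 with empty vector, was 0.74 ± 0.040 higher. TRIM38, a negative regulator of innate immune signalling, rose by 0.32 ± 0.072 (SE, limma adjusted p = 0.00393). TRIM25, a ligase linked to activation of the RNA sensor RIG-I, read 12.38 to 12.49 with YAPS94A and 12.12 to 12.37 with empty vector, and was 0.20 ± 0.047 higher (SE, limma adjusted p = 0.00461).

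The other 4 measured members of this list did not pass. TRIM6 was at 0.09 ± 0.053, TRIM14, a RING-less adaptor of mitochondrial antiviral signalling, at -0.07 ± 0.059 and TRIM26 at -0.05 ± 0.086. TRIM56, a ligase of the STING pathway, was at 0.21 ± 0.080 (limma adjusted p = 0.0565) and passed in the block fit (0.0162). Its second probe set was at 0.31 ± 0.047 and passed over all probe sets (limma adjusted p = 0.000376).

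**Figure D2:**
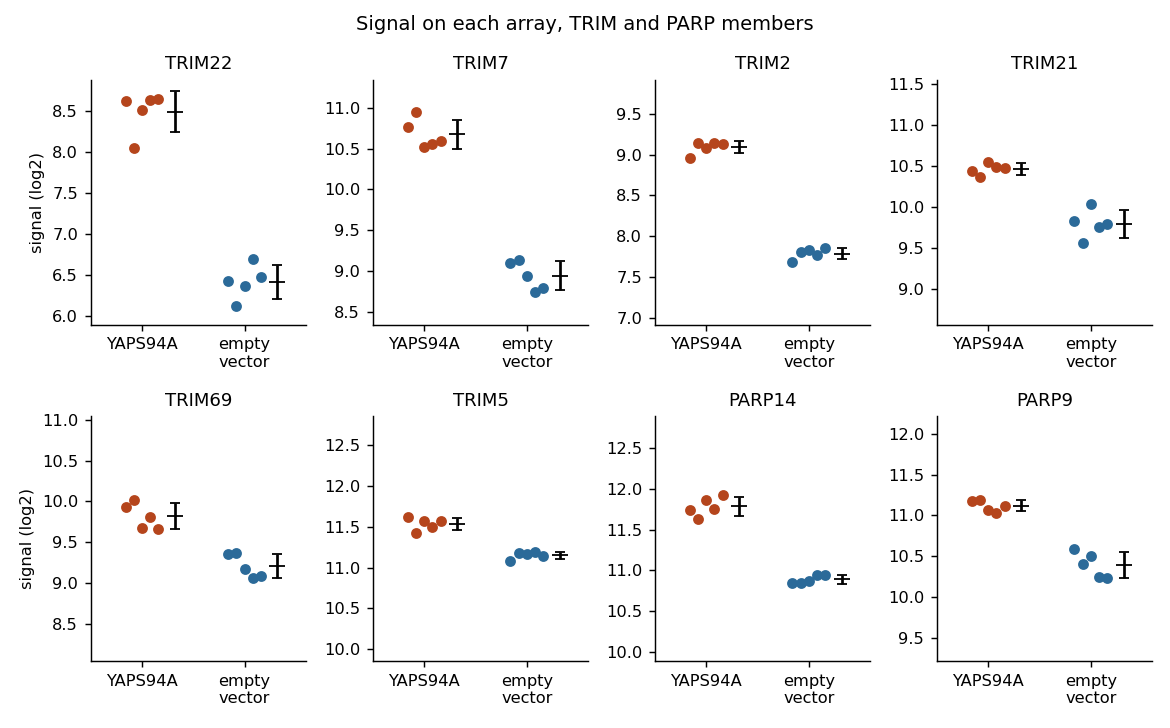
Log2 signal on each array (vertical axis, 3 log2 units in every panel) for 8 members, with the 5 YAPS94A arrays left of the 5 empty vector arrays. Points are single arrays in the order of their numbers, and the bar beside them is the mean with its SD. The groups do not overlap in any of the 8 panels.

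All 4 interferon-linked PARP genes rose, with a median difference of 0.55, and their arrays did not overlap between the vectors. Over all genes 18.6% were higher, and 15.3% were higher without overlap. This list too was drawn up with earlier results of these data known. PARP14, a mono-ADP-ribosyltransferase with macrodomains that bind ADP-ribose, read 11.74, 11.63, 11.86, 11.75 and 11.93 on the YAPS94A arrays, against 10.84, 10.85, 10.87, 10.94 and 10.95 with empty vector. It was 0.89 ± 0.055 higher (SE, 1.86-fold, limma adjusted p = 1.23e-07). A dim second PARP14 probe set, at 5.17 and 5.15, was at 0.02.

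PARP9, which works in a complex with the ubiquitin ligase DTX3L, read 11.18, 11.19, 11.07, 11.04 and 11.12 with YAPS94A and 10.59, 10.41, 10.50, 10.24 and 10.23 with empty vector. The lowest YAPS94A array lay above the highest empty vector array. The difference was 0.73 ± 0.071 (SE, 1.65-fold, limma adjusted p = 6.43e-06), while its second probe set rose by 0.17 ± 0.051. DTX3L, which is no member by symbol, rose by 0.48 ± 0.042 (limma adjusted p = 2.6e-06).

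PARP10, a mono-ADP-ribosyltransferase, read 8.46 to 8.78 with YAPS94A and 8.04 to 8.45 with empty vector, a difference of 0.37 ± 0.079 (SE, limma adjusted p = 0.00293). Both PARP10 probe sets that rose have identifiers ending in _x_at, which marks probes that may cross-hybridise, and the other 2 were at 0.09 and -0.04. The genes around PARP10 had a median difference of 0.18. Relative to it PARP10 was at 0.19 (limma adjusted p = 0.0802). PARP12, a zinc-finger member with antiviral activity, read 11.33, 11.47, 11.28, 11.33 and 11.31 with YAPS94A and 11.21, 11.17, 11.09, 10.98 and 11.01 with empty vector, and was 0.25 ± 0.054 higher (SE, limma adjusted p = 0.00278).

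Promoter stretches are shown for 6 interferon-linked members that rose, for 2 that did not pass and for DTX3L. The interferon-stimulated response element (ISRE) is known as the sequence bound by the factors that interferon activates. Windows from 250 bases before to 50 bases after an annotated start came from RefSeq (GRCh38.p14), with several windows for genes with several starts. They were searched for the ISRE core, GAAA followed by any 2 bases and another GAAA, on both strands (TTTC, any 2 bases and TTTC on the other), and overlapping matches were counted. The match is in capitals in the stretches below, which run 5′ to 3′ on the strand of the gene.
PARP9 (chr3:122564292-122564381, minus strand): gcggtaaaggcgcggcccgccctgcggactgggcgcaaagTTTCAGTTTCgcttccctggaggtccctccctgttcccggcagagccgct
DTX3L (chr3:122564292-122564381, plus strand): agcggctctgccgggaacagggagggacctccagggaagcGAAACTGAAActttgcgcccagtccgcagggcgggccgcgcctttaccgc
PARP14 (chr3:122680770-122680859, plus strand): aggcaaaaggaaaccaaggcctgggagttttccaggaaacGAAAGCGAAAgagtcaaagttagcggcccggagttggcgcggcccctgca
PARP12 (chr7:140062912-140063001, minus strand): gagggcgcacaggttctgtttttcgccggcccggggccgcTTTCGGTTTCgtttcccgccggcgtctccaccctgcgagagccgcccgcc
TRIM21 (chr11:4393653-4393725, minus strand): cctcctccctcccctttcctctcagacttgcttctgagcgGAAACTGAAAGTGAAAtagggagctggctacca
TRIM5 (chr11:5685052-5685141, minus strand): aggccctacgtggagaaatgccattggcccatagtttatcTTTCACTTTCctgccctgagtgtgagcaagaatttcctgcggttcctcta
TRIM69 (chr15:44736426-44736515, plus strand): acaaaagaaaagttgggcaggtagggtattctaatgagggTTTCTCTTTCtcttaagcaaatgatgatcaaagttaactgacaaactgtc
TRIM14 (chr9:98119199-98119288, minus strand): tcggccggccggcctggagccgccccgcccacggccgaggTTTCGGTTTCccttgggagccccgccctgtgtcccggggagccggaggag
TRIM26 (chr6:30213545-30213640, minus strand): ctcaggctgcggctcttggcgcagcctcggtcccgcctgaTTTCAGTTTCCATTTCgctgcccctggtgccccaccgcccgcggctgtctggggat

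The PARP9 and DTX3L stretches are the 2 strands of the same 90 bases, so both genes hold the same match. Its first base on the strand of the gene lay 41 bases before a PARP9 start and 6 bases before the DTX3L start, and the match ran across the DTX3L start. The first base lay 29 bases before the start of PARP14, 10 before that of PARP12, 27 before that of TRIM5 and 62 before that of TRIM69. TRIM21 held 2 overlapping matches that began 18 bases into the transcribed region. TRIM14 and TRIM26, which did not pass the test, held matches as well, with the first base 26 and 194 bases before the start. The letters of the TRIM14 match were the same as those of PARP12.

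Of the 54 members with a promoter window, 11 (20.4%) held a match, against 3.98% of the 15384 measured genes with a window and 3.57% of all 35116 windows. TRIM22 and PARP10 are among the 15 members without a window in the table, and TRIM6, TRIM25, TRIM38 and TRIM56 had windows without a match. The 8 higher among these 11 were PARP9, PARP12, PARP14, TRIM2, TRIM5, TRIM16, TRIM21 and TRIM69, and TRIM14, TRIM26 and TRIM44 did not pass. Their median difference was 0.39. Of the 43 members without a match 10 were higher and 3 lower, and their median was 0.01. Over all measured genes with a match 24.6% were higher and 17.5% lower. Over those without a match 18.8% were higher and 18.6% lower. These shares are descriptions, and the motif was chosen with the members' differences known. A match is only a run of letters and does not show a bound site.

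**Figure D3:**
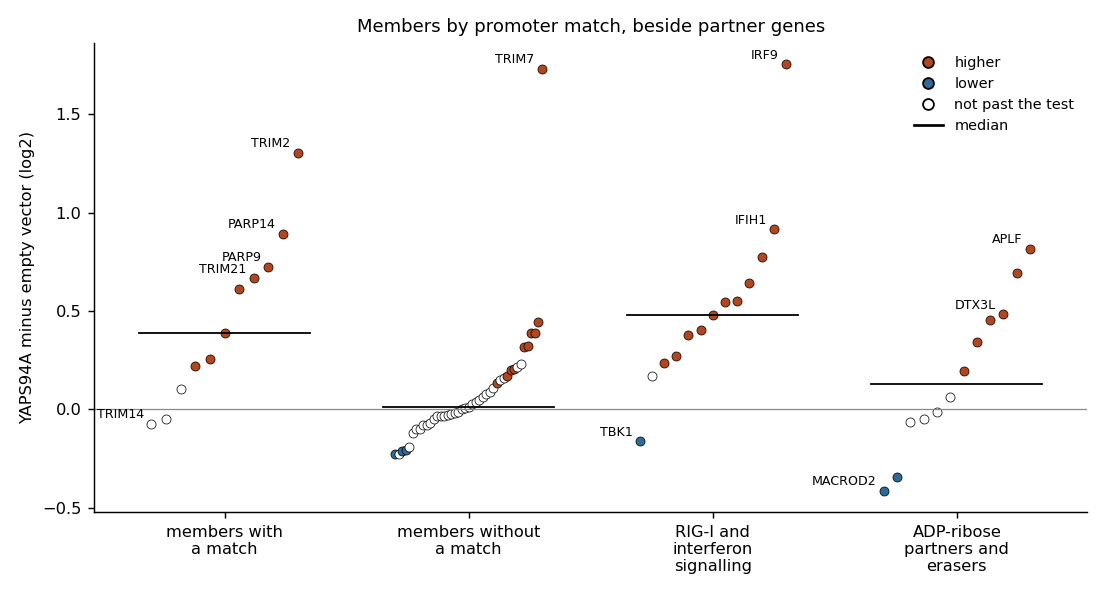
Differences (log2, vertical axis) for the 11 members with and the 43 members without a match to the ISRE core in a promoter window, and for the measured genes of the lists of RIG-I and interferon signalling and of ADP-ribose partners and erasers. Each point is a gene, sorted by size within its column, colour marks the call and the line is the median. The median is 0.39 for members with a match, 0.01 for those without, 0.48 for the signalling list and 0.13 for the ADP-ribose list.

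TRIM7 and TRIM2 rose outside the interferon-linked list. TRIM7, a ligase that binds glycogenin, read 10.77, 10.95, 10.51, 10.56 and 10.59 on the YAPS94A arrays and 9.11, 9.14, 8.94, 8.74 and 8.79 on the empty vector arrays. In both groups arrays 1 and 2 were the highest. The difference was 1.73 ± 0.099 (SE, 3.32-fold, limma adjusted p = 6.24e-08), and the other TRIM7 probe sets rose by 0.87 ± 0.070 and 0.44 ± 0.076.

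TRIM2, which carries NHL repeats and ubiquitinates neurofilament light chain, read 8.96, 9.14, 9.09, 9.15 and 9.14 with YAPS94A and 7.69, 7.81, 7.83, 7.77 and 7.86 with empty vector. It was 1.30 ± 0.048 higher (SE, 2.47-fold, limma adjusted p = 1.33e-09). Of its 6 probe sets 5 passed over all probe sets, with rises from 0.33 to 1.46, and the other, at 3.63 and 3.57, did not. The other NHL members TRIM3, TRIM32 and TRIM71 were at -0.02, 0.003 and 0.04 and did not pass. Thus 1 of the 4 NHL members was called, against 36.3% of all genes.

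The remaining TRIM genes that rose did so by under 0.5 log2 units. TRIM47 rose by 0.44 ± 0.10, TRIM10, known from red cell development, by 0.39 ± 0.099, TRIM16, a RING-less member of the response to damaged endomembranes, by 0.22 ± 0.040 and TRIM41 by 0.13 ± 0.037. The neighbours of TRIM41 had a median of 0.18, and relative to it TRIM41 was at -0.04. Averaged over its 4 probe sets, of which only the brightest passed, TRIM10 was at 0.11 (limma adjusted p = 0.0508). TRIM36, a microtubule-binding ligase, was 0.17 ± 0.051 higher and TRIM45, which carries a filamin domain, 0.12 ± 0.042 higher (limma adjusted p = 0.0415). The average of the TRIM36 probe sets was at -0.0075, and both TRIM36 (0.13) and TRIM45 (0.09) lost their calls after quantile normalization. The TRIM45 call was also lost without any one of YAPS94A arrays 2, 3, 4 and 5 or empty vector arrays 1, 3 and 5, with adjusted p of 0.0502 to 0.101.

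The chromatin corepressors of the family included 2 that fell and 2 that did not pass, and their median difference was -0.20. Over all genes 17.6% fell. TRIM24, a reader of histone marks that binds nuclear receptors, read 11.45 to 11.69 with YAPS94A and 11.67 to 11.87 with empty vector. The groups overlapped on 1 YAPS94A array, array 2. TRIM24 fell by 0.24 ± 0.058 (SE, limma adjusted p = 0.00695), on an _x_at probe set. A second _x_at probe set of TRIM24 fell by 0.28 (limma adjusted p = 0.0203 over all probe sets). Of the 2 TRIM24 probe sets without that suffix, the brighter was at -0.05 and did not pass, and the dimmer fell by 0.29.

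TRIM28, the corepressor recruited by KRAB zinc finger proteins, read 11.72, 11.86, 11.66, 11.70 and 11.55 with YAPS94A and 12.09, 11.96, 11.88, 11.72 and 11.86 with empty vector. The groups overlapped, and the difference of -0.21 ± 0.073 passed narrowly (SE, limma adjusted p = 0.0448). Leaving out any single array other than YAPS94A array 2 or empty vector array 4 ended the call, with adjusted p of 0.0606 to 0.107. The neighbours of TRIM28 had a median of -0.23, and relative to them TRIM28 was at 0.02. TRIM33, a partner of SMAD4 in TGF-beta signalling, was at -0.19 ± 0.097 (limma adjusted p = 0.162). It passed in the block fit on array numbers (limma adjusted p = 0.0135), averaged over its probe sets (0.0044) and without YAPS94A array 2 (0.0399). TRIM66 was at -0.08.

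TRIM13 and TRIM59, both anchored in membranes, fell without overlap between the vectors. TRIM13, a ligase of endoplasmic reticulum quality control, read 9.53, 9.67, 9.54, 9.52 and 9.55 with YAPS94A and 10.06, 10.02, 9.97, 9.83 and 9.86 with empty vector. It fell by 0.38 ± 0.053 (SE, limma adjusted p = 0.000109). Its other 3 probe sets were at 0.17, 0.13 and -0.09 and did not pass, so the fall rests on 1 probe set. TRIM59 fell by 0.21 ± 0.051 (SE, limma adjusted p = 0.00643), and by 0.11 relative to its neighbours (limma adjusted p = 0.0952).

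The PARP enzymes of DNA repair did not move alike. PARP2 read 11.34, 11.45, 11.34, 11.32 and 11.29 with YAPS94A and 11.72, 11.56, 11.63, 11.50 and 11.48 with empty vector, without overlap. It fell by 0.23 ± 0.051 (SE, limma adjusted p = 0.00384), and its other 2 probe sets both fell by 0.20. PARP1, the main sensor of DNA breaks, read 11.40, 11.50, 11.21, 11.18 and 11.10 with YAPS94A and 11.70, 11.52, 11.68, 11.34 and 11.26 with empty vector.

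The PARP1 arrays were spread widely within each group, and the groups overlapped. Its difference of -0.22 ± 0.10 was as large as that of PARP2 but did not pass (SE, limma adjusted p = 0.111). PARP1 passed in the block fit (limma adjusted p = 0.0203), without YAPS94A array 2 (0.0474) and without empty vector array 5 (0.0415). PARP3 rose by 0.20 ± 0.052, with 6.91 to 7.10 on the YAPS94A arrays and 6.63 to 6.89 on the empty vector arrays (SE, limma adjusted p = 0.00936).

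Among the other 6 PARP genes 3 were higher and 1 lower, against 18.6% and 17.6% of all genes. PARP16, which is anchored in the endoplasmic reticulum membrane, read 10.48, 10.50, 10.48, 10.48 and 10.51 with YAPS94A and 10.14, 10.08, 10.16, 10.08 and 10.05 with empty vector. Both groups were tight, and the rise was 0.39 ± 0.034 (SE, limma adjusted p = 2.52e-06). PARP4, found in vault particles, rose by 0.23 ± 0.042 and PARP8 by 0.32 ± 0.080, both past the test. PARP11, a mono-ADP-ribosyltransferase, fell by 0.20 ± 0.067 (limma adjusted p = 0.0325). The genes near it had a median of -0.31, and PARP11 was at 0.11 relative to them. The PARP11 call was lost without YAPS94A array 1 or 2 or empty vector array 4 or 5, with adjusted p of 0.0681 to 0.0773. PARP6 and PARP15 were at 0.06 and -0.03, and PARP15 had means of 4.65 and 4.68, below the lower quartile of probe set signals (4.74).

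Several members were not read alike by all their probe sets. Over all probe sets 28.6% passed. Of the 45 members with several probe sets, 5 had a called brightest probe set and all others called the same way (PARP2, PARP8, PARP9, TRIM5 and TRIM7), and 12 had a called brightest probe set beside another that was not called or went the other way. In 10 members the brightest did not pass while another did. TRIM4, a ligase that acts on RIG-I, was the only member called in both directions. Its brightest probe set, an _x_at one, was 0.25 ± 0.047 higher and another was 0.42 ± 0.072 higher, while 2 more were at -0.39 ± 0.067 and -0.26 ± 0.052. The mean of the 4 TRIM4 probe sets was at 0.0075, so no direction for TRIM4 as a gene can be given.

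TRIM11 and TRIM52 also differed by probe set. The brightest TRIM11 probe set was at 0.05 ± 0.11, and its other one, at 7.63 with YAPS94A and 8.30 with empty vector, fell by 0.67 ± 0.082 (limma adjusted p = 6.28e-05 over all probe sets). For TRIM52 the brightest was at 0.15 ± 0.10 and the other, at 7.76 with YAPS94A and 8.12 with empty vector, fell by 0.35 ± 0.050 (limma adjusted p = 0.000193 over all probe sets). Of TRIM38's 4 probe sets 3 rose, by 0.32, 0.49 and 0.46, and the fourth was an _x_at one at 0.13.

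**Figure D4:**
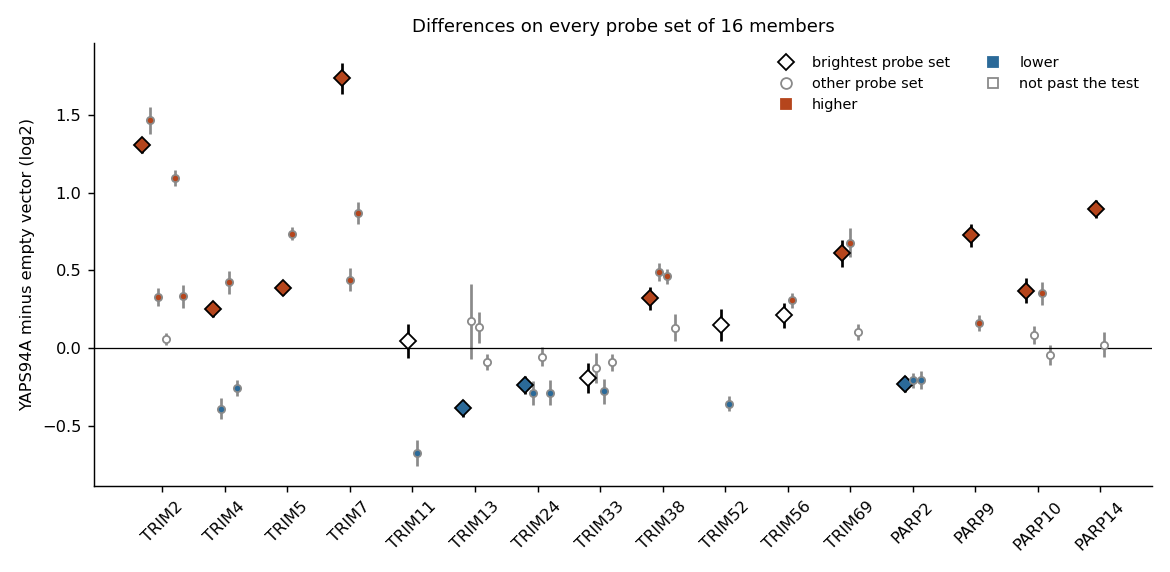
Differences (log2, vertical axis) on every probe set of 16 members, with standard errors. Diamonds mark the brightest probe set and circles the others, and fill marks the call over all probe sets. The 4 probe sets of TRIM4 lie on both sides of 0, from -0.39 to 0.42, whereas all 3 of PARP2 lie below it.

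The 40 members that did not pass differed by at most 0.30, the value of TRIM27, a RING ligase first found as a fusion partner of RET, at -0.30 ± 0.12 (limma adjusted p = 0.0755). TRIM15, at 0.23 ± 0.085, was the closest to the threshold (limma adjusted p = 0.0505). In the block fit 8 of these 40 passed, among them TRIM27 (0.00821), which was lower in 5 of 5 pairs of arrays, and TRIM15 (0.0499), higher in 4 of 5. TRIM29, TRIM44 and TRIM65 also passed there (0.0163, 0.0456 and 0.0289), beside TRIM33, TRIM56 and PARP1. Of the 7 members that bind microtubules or belong to muscle, TRIM36 alone was called (14.3%, against 36.3% of all genes). TRIM9, TRIM46, TRIM54, TRIM55, TRIM63 and TRIM67 were between -0.10 and 0.05. The means of 4 members, PARP15, TRIM51, TRIM58 and TRIM72, were below 4.74 in both groups, where background may hide a difference. TRIM8, a ligase that affects STAT signalling, read 13.27 with YAPS94A and 13.30 with empty vector and was at -0.03.

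Some members that lie next to each other differed in their calls, and others shared a call. On chromosome 11 the members began in the order TRIM21, TRIM68, TRIM5, TRIM6, TRIM22, TRIM3 and TRIM66 by RefSeq start, with differences of 0.67, -0.05, 0.39, 0.09, 2.09, -0.02 and -0.08. On chromosome 3 PARP9 (0.73), PARP15 (-0.03) and PARP14 (0.89) followed each other. The genes outside both families around TRIM22 had a median difference of -0.07, and those around PARP9 and PARP14 a median of -0.09. TRIM7, at 1.73, and TRIM41, at 0.13, were neighbouring members on chromosome 5 and both called higher, with a median of 0.18 around them.

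The genes around these enzymes were taken from 3 lists. Of 13 measured genes of RIG-I and interferon signalling, 11 were higher and 1 lower, against 18.6% and 17.6% of all genes. Their median difference was 0.48, against -0.0038 over all genes. IFIH1, the RNA sensor MDA5, rose by 0.92 ± 0.037, IRF9, a subunit of the interferon-activated factor ISGF3, by 1.75 ± 0.10, UBE2L6, the conjugating enzyme of ISG15, by 0.64 ± 0.037, and ISG15 itself by 0.55 ± 0.046. The kinase gene TBK1 was the one that fell, by 0.16.

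Of 12 measured partners and erasers of ADP-ribose, 6 were higher and 2 lower, against 18.6% and 17.6% of all genes, with a median of 0.13. APLF, a histone chaperone that binds poly-ADP-ribose, rose by 0.82 ± 0.071, PARPBP, an inhibitor of homologous recombination, by 0.46 ± 0.034 and DTX3L as given above. Of the enzymes known to remove ADP-ribose, MACROD1 was 0.70 ± 0.055 higher, among genes with a median of 0.29, and MACROD2 0.41 ± 0.043 lower. OARD1 (-0.05), ADPRS (0.07) and PARG (-0.01) did not pass.

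Relatives of both families under other symbols were 2 higher (14.3%) and 1 lower (7.14%) of 14, with a median of 0.0013. Both shares were below those of all genes, 18.6% and 17.6%. TRIML2, a TRIM-like gene, rose by 2.97 ± 0.066 (limma adjusted p = 1.76e-11) to 8.64 in YAPS94A cells, against 5.67 with empty vector. BSPRY, which has a B-box and a SPRY domain, rose by 0.47 ± 0.070. TIPARP (PARP7), known as a target of the dioxin receptor, fell by 0.14 ± 0.035. The genes near it had a median of -0.11, and TIPARP was at -0.03 relative to them (limma adjusted p = 0.552). The antiviral zinc-finger protein gene ZC3HAV1 (PARP13) was at 0.18 ± 0.10, the tankyrase genes TNKS and TNKS2 at 0.11 ± 0.065 and -0.03 ± 0.11, PML (TRIM19) at -0.18 ± 0.15 and the microtubule-associated ligase gene MID1 (TRIM18) at -0.16 ± 0.062, and none of these 5 passed. ZC3HAV1 passed when its probe sets were averaged (0.26, limma adjusted p = 0.00354). MID1 (limma adjusted p = 0.0612) passed in the block fit (0.0263) and in 8 other alternatives, among them the fits without empty vector array 1 (0.0102) or 3 (0.0439).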

How the data were processed

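Human genome-wide Affymetrix arrays of 10 RNA samples were used. Per the labels' protocols, a NuGEN Ovation kit amplified the RNA, and the cDNA carried biotin. The deposited values are log2 signals per probe set, and the sources used here do not give the authors' summary or normalization method. They lay between 2.86 and 14.43, with array medians of 6.25 to 6.28, and were used unchanged. Arrays carry no counts, so their number limits the precision. Of 54675 probe sets, 41097 had 1 symbol, 1801 several and 11777 none in the platform annotation, updated through RefSeq (GRCh38.p14) for 41043. The 62 control probe sets were left out. TRIM16L, annotated as a transcribed pseudogene, stayed a member by its symbol. TRIM34 shares its probe sets with other symbols, and TRIM34, TRIM23, STAT2, UBA7 and ADPRH are not analysed here.

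All 19775 genes were fitted with limma 3.58.1 (R 4.3.3, lmFit and eBayes, no covariate, two-sided, Benjamini-Hochberg). The fit was tested on simulated data, where it recovered 44% of shifts of 0.25 log2 units and 100% of shifts of 0.5. The simulation shifted 50 genes at each size, far fewer than were called here, so its shares need not hold for these data. Members and lists were chosen with earlier results of these data known. The naming rule took members past the test by at least 0.5, some fixed genes and up to 4 genes from each of the 3 other lists. Members named beyond it were chosen after their values were seen.

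Both vectors carry the numbers 1 to 5. After subtraction of the group means, arrays sharing a number correlated at 0.102 to 0.59, above 0.1 in all 5 pairs. The number was therefore entered as a block in an alternative fit, while the reported fit left it out. The labels name no shared batch or day, and correlations of arrays with different numbers are not given here. Alternatives were 2 renormalizations, a filter on dim genes, the mean of all probe sets, omission of _x_at and _s_at probe sets, an intensity trend, array weights, the array number as a block, omission of single arrays, and subtraction of the median of each gene's 30 nearest neighbours above the median level. A fit on arrays 3 to 5 was added after the data were seen.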

Additional observations from a re-analysis of the deposited data

Results flagged for a closer look

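Dixon's test for an array far from the other 4 of its group was applied to both groups of 47 genes, 94 groups in all, where chance flags about 1 group in 20. It marked 4 values, all on YAPS94A array 2. TRIM22 read 8.06 there, against 8.51 to 8.65 on the other YAPS94A arrays, and its difference without that array was 2.20. PARP12 read 11.47, against 11.28 to 11.33, and its difference without the array was 0.22. TRIM38 read 9.80, against 9.60 on each of the others, and its difference without the array was 0.28. TRIM13 read 9.67, against 9.52 to 9.55, and its difference without the array was -0.41. All 4 genes still passed the limma test without this array. This array also had the largest deviations over all genes, and its part in these values was not tested further.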

How the results depend on the processing

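Of the 29 members past the test, 17 passed in the same direction under all 20 alternatives in which they had a value, and 12 lost the call under at least 1. TRIM genes higher numbered 10 to 19 (15 as reported) and PARP genes higher 6 to 8 (8 as reported). TRIM genes lower numbered 8 with the mean of probe sets, 7 with the array number as a replicate block and 3 to 7 with each array left out, against 4; the 7 was without YAPS94A array 2. PARP genes lower numbered 1 without _x_at and _s_at probe sets, 1 with the neighbour median subtracted and 1 to 2 with each array left out, against 2; the 1 was without YAPS94A array 1 or empty vector array 4. The TRIM median was 0.11 among the 34 genes above the median level and lay between 0.0031 and 0.047 with each array left out, and the PARP median was 0.29 with the neighbour median subtracted and 0.21 to 0.25 with each array left out. With the neighbour median subtracted the sign turned for TRIM28 (0.022), PARP11 (0.11), TRIM41 (-0.042) and TNKS (-0.076), and PARP10, TIPARP, TRIM45 and TRIM59 lost their calls. With the mean of probe sets it turned for PML (0.17) and TRIM36 (-0.0075), and without _x_at and _s_at probe sets for TRIM4 (-0.39) and TNKS2 (0.048). TNKS2, which was not called, ranged from -0.087 to 0.049 with each array left out and was above 0 without YAPS94A array 2, empty vector array 4 or empty vector array 5. The replicate block ended no member's call and added 8, TRIM15, TRIM44, TRIM56 and TRIM65 higher and TRIM27, TRIM29, TRIM33 and PARP1 lower. Among the genes of the other lists that were followed through the alternatives, it changed the call of MID1 alone. The remaining genes of those lists were not followed there. On arrays 3 to 5 alone PARP3 (adjusted p = 0.0633) and TRIM45 (0.132) lost their calls, and 18 TRIM and 7 PARP genes were higher. The causes of these changes were not tested. Dim signals limit the smallest differences that can be read.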
